A study of Mus musculus with 20 samples.

Results

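The peaks of the histone mark H3K27me3 (histone H3 trimethylated at lysine 27) called in serum-deprived SS mutant mouse embryonic fibroblasts were set against those called in asynchronously proliferating SS fibroblasts, on chromosomes 1 to 19 of the mm9 build. The members are the 62531 proliferating SS peaks over 1 kb, out of 166592 proliferating SS peaks on these chromosomes and 4480164 peaks in the 10 lists of the series. The counterpart is the arrested SS list with 208802 autosomal peaks. Both cultures were C57BL/6 embryonic fibroblasts taken at E13.5 and grown to passage 4 in 10% serum. SS is a genotype that the labels do not spell out, and WT is wild type. The labels give 0.1% serum for 72 h as the means of arrest. They repeat that treatment text for the proliferating samples too, whose growth condition field and title name proliferation. The labels used here do not say how many embryos a culture came from. Each group had 1 library, so differences between groups stand without replicates or a test. Peak lists carry no expression, so the fibroblast label could not be checked against marker genes. Sequencing depth is unknown from peak lists, and a library with more reads or other settings can yield more, longer or shorter peaks. A change in called coverage is therefore not a measured change in the amount of the mark.

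H3K27me3 is written by Polycomb repressive complex 2, whose catalytic subunit is Ezh2, and is associated with silenced chromatin. In differentiated cells such as fibroblasts it forms broad domains over silent developmental regulators, of which the Hox clusters are the textbook example, and shorter islands around other CpG-rich promoters. The Hox genes encode transcription factors that set position along the body axes, and those with higher numbers act towards the tail and the ends of the limbs. The retinoblastoma protein pRb, which the series is about, restrains cell-cycle entry and can recruit chromatin regulators.

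In each of the 4 Hox clusters the longest arrested SS peak was centred on the side of the gene numbered 13, as described further on. The promoter sequences of 2 of these genes, Hoxa13 and Hoxd13, are shown here as examples, and those of Hoxb13 and Hoxc13 are not shown. They are the RefSeq promoter windows of the GRCm38.p6 build, 250 bases before to 50 after the gene start, with every CG dinucleotide in capitals. Hoxa13 lies on the minus strand at chr6:52260831-52261130 and Hoxd13 on the plus strand at chr2:74667975-74668274 of that build, which is not the build of the peaks. The windows were not placed within single peaks.
Hoxa13: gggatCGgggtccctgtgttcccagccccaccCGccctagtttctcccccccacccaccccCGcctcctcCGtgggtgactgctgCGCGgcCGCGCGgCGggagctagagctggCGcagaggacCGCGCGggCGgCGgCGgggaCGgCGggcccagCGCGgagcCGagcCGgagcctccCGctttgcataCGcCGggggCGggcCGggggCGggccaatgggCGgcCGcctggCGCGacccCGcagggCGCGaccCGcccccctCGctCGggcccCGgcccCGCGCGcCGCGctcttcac
Hoxd13: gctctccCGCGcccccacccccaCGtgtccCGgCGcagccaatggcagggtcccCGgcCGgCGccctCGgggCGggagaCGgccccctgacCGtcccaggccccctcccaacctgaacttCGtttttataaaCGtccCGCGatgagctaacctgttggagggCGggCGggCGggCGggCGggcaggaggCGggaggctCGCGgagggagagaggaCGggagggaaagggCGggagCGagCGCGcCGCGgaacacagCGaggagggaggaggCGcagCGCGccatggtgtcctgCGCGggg
The Hoxa13 window holds 45 CG dinucleotides, a number reached by 1.93% of the 32851 promoter windows of 300 bases. The Hoxd13 window holds 37, reached by 5.58% of them. The median window holds 7, and 94.6% hold at least 1 CG, which reads the same on both strands. The density of CG in these windows is a description and was not related to the peaks by a test.

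The arrested list held more peaks, which were shorter. Its autosomal peaks covered 159.5 Mb and the proliferating ones 283.8 Mb, or 6.60% and 11.8% of the 2415.2 Mb between the first and last peaks of the chromosomes. The median peak length was 439 bp in arrested and 705 bp in proliferating cells. Peaks at the shortest length of their list, 145 and 155 bp, made up 23.8% of arrested and 8.97% of proliferating peaks. Relative to proliferating cells, arrested cells had 1.90 times as many peaks up to 500 bp and 1.24 times as many between 500 bp and 1 kb. The ratio was 0.885 between 1 and 2 kb, 0.295 between 5 and 10 kb and 0.0275 over 50 kb, where 3 arrested peaks stood against 109.

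Arrested peaks lay mostly on the sequence of proliferating peaks and filled part of it. They covered 37.8% of the sequence in proliferating peaks of any length and 2.46% of the remaining autosomal span, a ratio of 15.4. Of the 62531 members, 45565 or 72.9% (Wilson 95% bounds 72.5 and 73.2), had some sequence in an arrested peak, against 41.0% of all proliferating SS peaks. Coverage reached at least 50% of the length in 14730 members, 23.6%, against 15.7% of all proliferating peaks, and at least 90% in 1367 members, 2.19%, against 4.23%. Among proliferating peaks up to 1 kb, 5.46% were covered to at least 90%. The median member was covered to 23.9% of its length, with quartiles of 0% and 48.4%. Summed over the members, 42.8% of 236.2 Mb was covered. Such bounds reflect the number of peaks alone, and peaks near each other are not independent.

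Longer domains were covered more completely. The median coverage was 6.89% for members of 1 to 2 kb, 26.7% for 2 to 5 kb and 44.8% for 5 to 10 kb. It was 57.4% for 10 to 20 kb, 70.0% for 20 to 50 kb and 80.8% for the 109 members over 50 kb. All 109 of the longest were covered to at least 50%, and 11 to at least 90%. Of the 28860 members between 1 and 2 kb, 13615 had no arrested peak at all, 47.2%. Across members, Spearman's rho of coverage was 0.469 with length and 0.465 with the authors' -log10 q-value of the proliferating peak, but length and q-value themselves had a rho of 0.592. The members share 2 libraries, so these correlations describe the lists and carry no p-value. Around the length limit itself coverage did not jump, with a mean of 16.9% for the 5272 peaks of 900 to 1000 bp and 17.1% for the 4687 peaks of 1000 to 1100 bp.

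**Figure D1:**
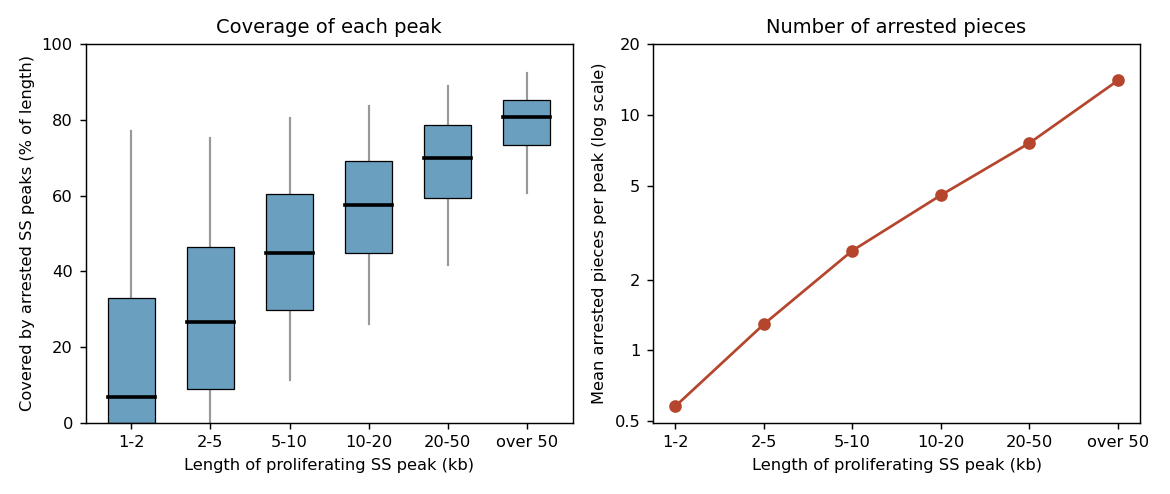
Left, the share of each proliferating SS peak over 1 kb that lay in arrested SS peaks, by length in kb (bar, line and whiskers: quartiles, median, and 5th and 95th percentiles over peaks). Right, the mean number of separate arrested peaks in each, on a log axis. The median rises from 6.89% at 1 to 2 kb to 80.8% over 50 kb while the mean number of pieces rises from 0.578 to 14.0.

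Within each length range, members with stronger proliferating signal were covered more. Among members over 10 kb, median coverage rose from 46.5% in the quartile with the lowest -log10 q-values to 74.2% in the quartile with the highest. Between 1 and 2 kb it was 0% and 15.6% in the same quartiles, and the share with no arrested peak was 57.9% and 35.9%. Length also rose with score inside these ranges. The median length in the same quartiles was 12226 and 19160 bp over 10 kb, and 1271 and 1426 bp between 1 and 2 kb. Score and length are thus not fully separated here. The result depends on the score of the arrested peaks kept. With only the arrested peaks above their median -log10 q-value of 1.77, the median member was covered to 2.85%. A minimum of 2.47 for both lists, the median of the proliferating list, left 50878 arrested peaks and 44555 members. The median of these members was covered to 0%, although the median member over 10 kb was still covered to 37.6%.

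Nearly all broad domains held several separate arrested peaks. A piece is here a separate arrested peak with at least 1 bp in the member. Among members, 25450 held 1 piece and 20115, or 32.2%, held 2 or more, against 12.1% of all proliferating peaks. Of the 3987 members over 10 kb, 3930 held 2 or more pieces, 312 held 10 or more and 1 held none. The mean number rose with length from 0.578 pieces at 1 to 2 kb to 14.0 over 50 kb. Per 10 kb of domain it fell from 4.11 to 1.94. Arrested peaks that only cross an edge count as pieces, which weighs more in short members. Piece lengths count only the part inside the member, so a member of 1 to 2 kb cannot hold a piece over 2 kb. The longest piece had a median length of 420 bp in touched members of 1 to 2 kb and of 16343 bp in members over 50 kb. Among touched members alone, the longest piece had a median share of the member between 23.3% and 29.3% in the 6 length ranges over 1 kb. That leaves out the 47.2% of members of 1 to 2 kb that held no piece.

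The uncovered sequence fell into 3 kinds, whose weight changed with length. Members had 135.1 Mb outside arrested peaks. Members with no arrested peak held 20.4% of it, the stretches between an edge and the outermost piece 44.1%, and the breaks between pieces 35.5%. In members over 10 kb the breaks made up 77.8% and the edges 22.2%. The 41889 breaks had a median length of 907 bp, with quartiles of 707 and 1353 bp, and the longest was 8401 bp. No 2 neighbouring peaks of the arrested list lay closer than 581 bp and none of the proliferating list closer than 621 bp, so a shorter break cannot appear in either list. Merging arrested peaks within 1 kb brought the mean number of pieces per member from 1.40 to 1.01 and the median coverage to 28.1%.

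Coverage was lowest at the edges of the domains and rose towards their middle. In members over 20 kb, arrested peaks covered 33.3% of the outermost 250 bp, 55.9% between 1 and 2 kb from the edge, 73.0% between 5 and 10 kb and 78.7% between 10 and 25 kb. In members of 1 to 5 kb the rise was smaller. With each of these members divided into 10 equal segments, coverage was 22.2% in the outermost segment on 1 side, at most 29.6% in the middle and 22.3% in the outermost on the other. Outside the edge, arrested coverage of sequence with no proliferating peak was 23.9% in the first 250 bp beside members over 20 kb and 15.7% beside those of 1 to 5 kb. At 10 to 25 kb it was 6.70% and 5.94%. These distances run outward from each member edge in turn, so sequence near several members was counted once for each, and the outside values lie above the 2.46% of all sequence outside proliferating peaks. Averaged over all members of a length range, arrested coverage thus changed gradually across the edge. These averages do not show how single arrested peaks ended near it.

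**Figure D2:**
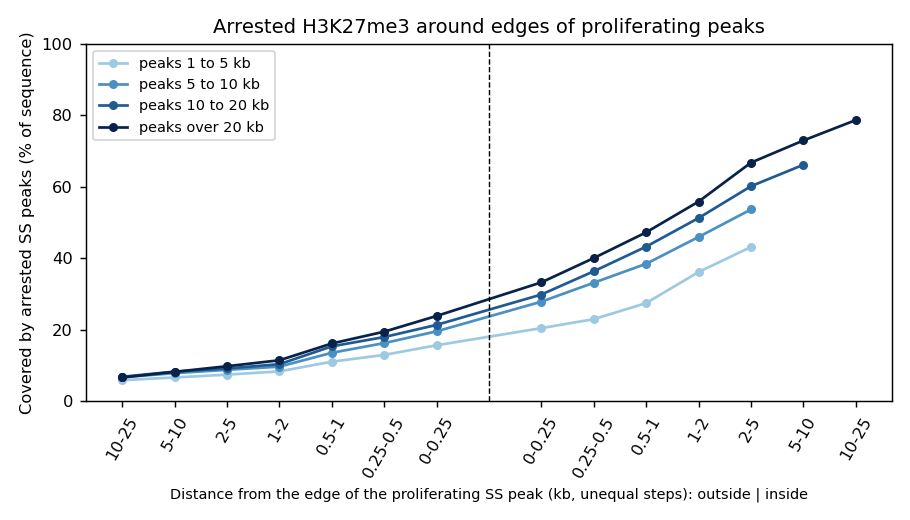
Share of sequence in arrested SS peaks by distance in kb from each edge of the proliferating SS peaks over 1 kb, outside to the left of the dashed line (other proliferating peaks removed, sequence near several edges counted for each) and inside to the right, for 4 length ranges. The distance steps are unequal and the innermost steps hold only the longer peaks of a range; in the longest range coverage climbs from 6.70% at 10 to 25 kb outside to 78.7% at 10 to 25 kb inside.

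The longest members showed how differently broad domains were broken up. The longest of all, at chr15:102702120-102909341, had an authors' fold enrichment of 7.21 in proliferating cells, held 50 arrested pieces and was covered to 67.1%. Its longest piece, at chr15:102735326-102811943, ran unbroken for 76.6 kb. The next longest member, at chr11:96088029-96247809, held 51 pieces, the most of any member, and was covered to 52.3% with a longest piece of 10037 bp. The 3rd longest, at chr9:107243330-107392803, was covered to 76.0% by 38 pieces of at most 18.5 kb. The domain at chr19:44783404-44932627 was covered to 82.0% by 26 pieces, and that at chr7:86630180-86770019 to 92.2% by 13. Domains of like length therefore differed from 13 to 51 pieces within the same pair of libraries.

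The proliferating SS list had 1 long peak at each of the 4 Hox clusters. The clusters were located from general knowledge of the mm9 map, not from an annotation file, and the order of their genes along the chromosome is that of the GRCm38 gene table. HoxC corresponds to the chromosome 15 peak and HoxB to the chromosome 11 peak given above. HoxA corresponds to chr6:52110166-52232917, covered to 69.3% by 25 pieces, and HoxD to chr2:74477066-74610215, covered to 69.0% by 32 pieces. In each cluster the arrested pieces were unevenly spread. On the side of the peak's midpoint nearer the gene numbered 13, coverage was 92.1% for HoxA, 63.9% for HoxB, 88.0% for HoxC and 89.7% for HoxD. On the other side it was 46.6%, 40.7%, 46.1% and 48.3%. HoxD had 8 pieces on the Hoxd13 side and 24 on the Hoxd1 side, and HoxC 12 and 39. HoxB differed least in number, with 27 and 24 pieces. The longest piece of HoxA, 46.1 kb at chr6:52182040-52228116, and that of HoxD, 31.9 kb at chr2:74492079-74523952, both lay on the side of gene 13, as did that of HoxB, while that of HoxC was centred on that side and crossed the midpoint. These sides were compared after the values were seen, and a peak's midpoint is not the middle of the gene cluster.

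The WT Hox peaks were divided at their own midpoints, which are not those of the SS peaks, so the sides are not the same sequence in both genotypes. In the WT pair, arrested peaks covered 55.2% and 42.1% of the 2 sides of HoxA, 72.0% and 37.6% of HoxC, and 51.7% and 33.5% of HoxD, with the gene 13 side first. HoxB had the opposite order, with 40.0% and 44.8%. Its longest arrested WT piece was centred on the Hoxb1 side, at 65.5% of the peak's length from the Hoxb13 end. Arrested WT peaks split the 4 proliferating WT Hox peaks into 56, 83, 85 and 71 pieces for HoxA, HoxB, HoxC and HoxD. The differences between genotypes rest on 1 library each and were not tested.

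**Figure D3:**
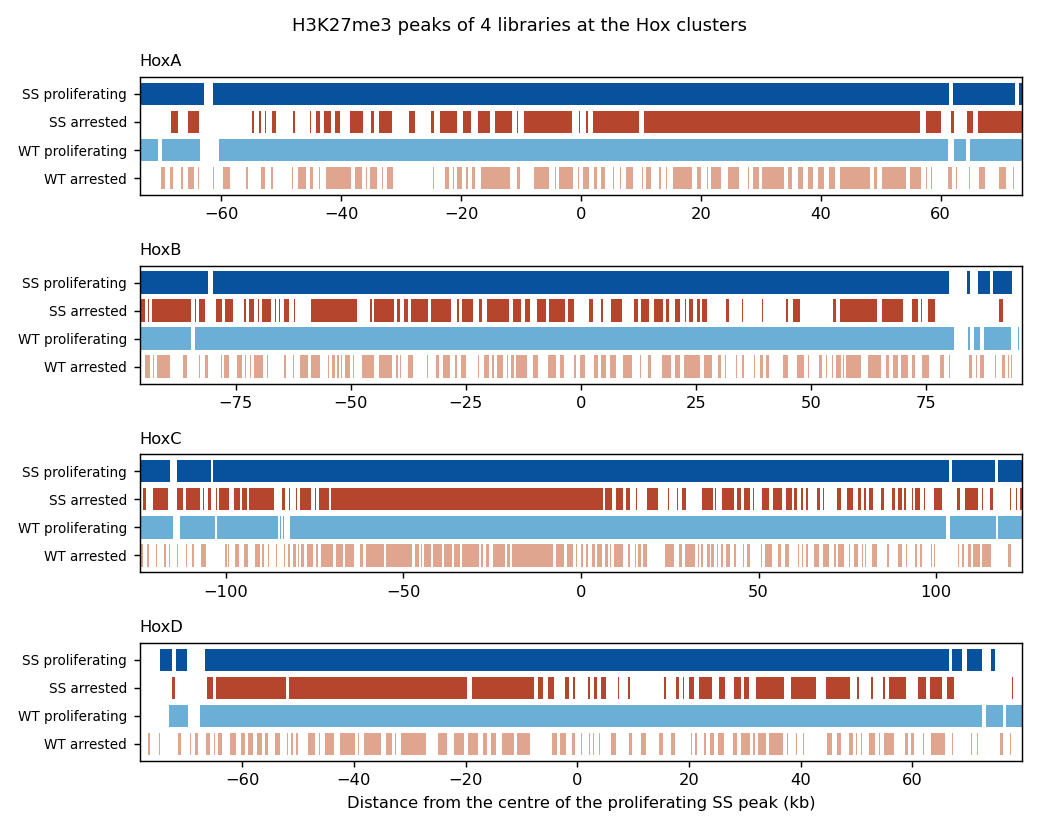
Peaks of the 4 H3K27me3 libraries at the Hox clusters, by distance in kb from the centre of the proliferating SS peak, with 1 row per library and 1 bar per peak. The unbroken proliferating SS peaks (top rows) stand over 25, 51, 50 and 32 arrested SS pieces for HoxA, HoxB, HoxC and HoxD, and the longest pieces lie to the right in HoxA and to the left in the others.

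Members over 10 kb at the extremes of coverage showed nearly whole or nearly absent arrested calls. Those at chr1:89044277-89055616, chr10:51738361-51752576 and chr7:133967413-133982193 were each covered entirely by 1 arrested peak, and that at chr11:78300246-78310712 to 99.8%. The 5th most covered, at chr8:126061175-126149019, was 87.8 kb long and lay to 99.2% in 1 arrested SS peak, the longest of that list. Arrested WT peaks covered it to 99.1% in 2 pieces, where they split each of the 5 longest members into 63 to 96. The Ezh2 SS list had 0 peaks in it and 55 to 92 in each of those 5. Its authors' fold was 12.9 in proliferating SS cells, against 7.21 for the longest member.

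At the other end, the member at chr5:15208228-15220087 was the only one over 10 kb with no arrested peak. Those at chr2:71699016-71710464, chr8:73653117-73669532, chr11:18646057-18656496 and chr8:19715841-19737637 were covered to 1.82%, 2.41%, 3.70% and 4.61%. All 5 also had proliferating WT peaks, which covered between 69.5% and 100% of them. So did 100% of the 3987 members over 10 kb, whose median coverage by proliferating WT peaks was 92.7%. In 3 of the 5 the Ezh2 SS list was dense, covering 18.7% of the chromosome 5 member and 23.2% and 30.2% of the pair on chromosome 8, against 5.03% of the autosomal span. The part of Ezh2 peaks in the low coverage was not tested.

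Members without an arrested peak were short and had weaker scores. There were 16966 of them, 27.1% of the members against 59.0% of all proliferating SS peaks, with a median length of 1405 bp against 2795 bp for touched members. Of these, 65.2% shared sequence with a proliferating WT peak, against 91.6% of touched members. Between 2 and 5 kb, where lengths were more alike, the shares were 87.5% and 96.8%. Only 62 untouched members were between 5 and 10 kb, and the chromosome 5 member was the 1 over 10 kb.

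As a yardstick for 2 libraries of 1 growth condition, proliferating WT peaks covered 60.6% of the median SS member and 92.7% of the median SS member over 10 kb. Arrested SS peaks covered 23.9% and 61.6% of the same members. Members over 10 kb held 2.09 proliferating WT pieces on average and 5.53 arrested SS pieces. Arrested SS cells thus shared less called sequence with proliferating SS cells than proliferating WT cells did, a difference between lists of unlike size that was not tested. Ezh2 peaks of serum-deprived SS cells covered 5.61% of the members' sequence, close to their share of 5.03% of the whole span.

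Arrested peaks outside proliferating peaks were numerous and short. Of the 208802 arrested SS peaks, 101412 or 48.6% (48.4 to 48.8) had 0 bp in a proliferating SS peak, but they held 36.3 Mb, or 22.8% of the arrested length. A further 16.1 Mb, 10.1%, was the overhang of arrested peaks that did overlap a proliferating peak. Outside peaks had a median length of 225 bp, against 684 bp for overlapping ones. At the shortest length of 145 bp were 38.6% of outside and 9.81% of overlapping peaks. Only 3432 outside peaks, 3.38%, were over 1 kb, and the longest was 3752 bp, so no broad arrested domain on the autosomes lay wholly outside proliferating peaks. The median authors' -log10 q-value was 1.60 outside and 1.94 for overlapping peaks. Among arrested peaks of at least 500 bp the share outside was 28.3%.

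Outside peaks were longer close to proliferating peaks than far from them. The median outside peak lay 3.36 kb from the nearest proliferating peak, 68.9% lay within 10 kb and 4.67% over 100 kb away. The share of all sequence within 10 kb of a proliferating peak was not computed, so these distances have no background beside them. Peaks over 1 kb made up 4.89% of those within 500 bp and 0.886% of those beyond 100 kb. Peaks of 145 bp made up 28.4% and 56.5%. The 3432 outside peaks over 1 kb lay closer than the rest, with 82.8% within 10 kb and a median of 1.64 kb. Counting only peaks over 10 kb away as outside lowered the share from 48.6% to 15.1%.

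**Figure D4:**
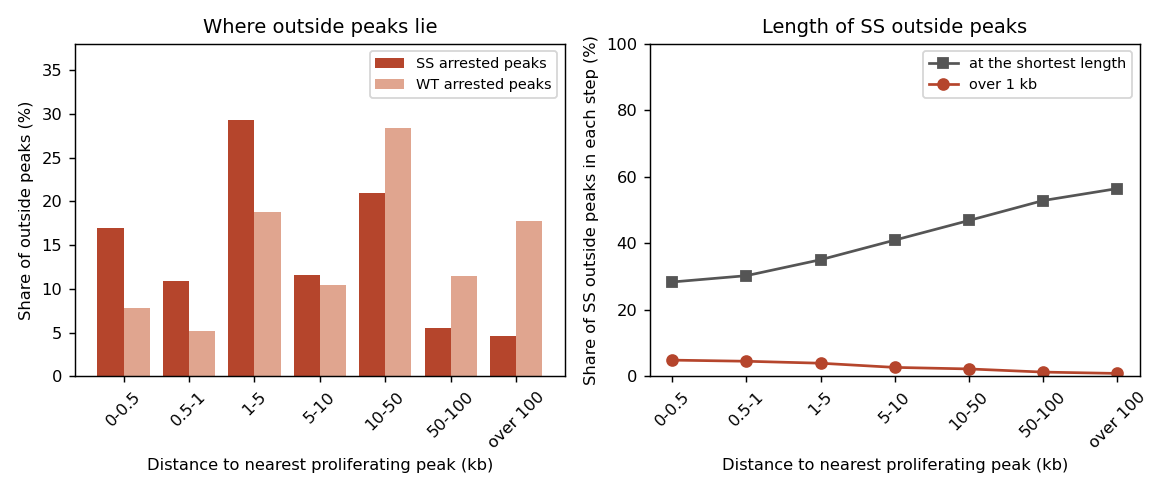
Left, the share of arrested peaks without proliferating overlap by distance in kb to the nearest proliferating peak of the same genotype. Right, for SS, the share in each distance step at the shortest length or over 1 kb; the former rises from 28.4% to 56.5% and the latter falls from 4.89% to 0.886%.

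The longest outside peaks lay within 1 kb of a proliferating SS peak, which could be of any length. The longest, of 3752 bp at chr17:73903400-73907151, lay 870 bp from a proliferating SS peak. That at chr9:66151450-66154913 lay 164 bp away and that at chr1:94126158-94129241 lay 364 bp away. A further pair, at chr19:57007344-57010260 and chr1:194145707-194148623, lay 100 and 942 bp away. All 5 overlapped a proliferating WT peak, which covered 14.1% to 25.0% of them. Among all outside peaks over 1 kb, 28.1% overlapped one, and 11.5% of their length was covered. The 5 were picked by length, which favours an overlap of at least 1 bp. In the reverse direction, 2878 of the 107390 overlapping arrested peaks joined 2 or more proliferating peaks. The longest joining peak, at chr11:118903867-118930311, ran for 26.4 kb across 2 proliferating SS peaks, which held 96.6% of its length.

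Outside peaks were found in nearly all 1 Mb windows of the autosomes. Of 2426 windows of 1 Mb, 14 had none, and the median window had 41. Windows with up to 1% of their sequence in proliferating peaks held a median of 25, and those with 10% to 20% a median of 49. The median was lower again in richer windows, with 43 at 20% to 40% and 34.5 over 40%, which also have less sequence left between proliferating peaks. As a share of the sequence left between proliferating peaks, outside peaks covered a median of 0.725% in windows with up to 1% and 2.63% in those with over 40%. Across windows, total arrested coverage followed proliferating coverage with a Spearman's rho of 0.980, a description over windows that share both libraries. The window with the most outside peaks, chosen after its values were seen, was at chr2:178000001-179000000 with 110.

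Other libraries held fewer of the outside peaks than of the overlapping ones. A proliferating WT peak was found at 11.7% of outside and 77.6% of overlapping arrested SS peaks, and an arrested WT peak at 20.5% and 55.0%. The split was made on proliferating SS peaks, and proliferating WT peaks covered 72.2% of the length of those over 1 kb. A gap for proliferating WT is thus partly built into the split, at any peak length. Peak length differs between these sets, so 145 bp peaks alone were compared: the shares were 6.48% and 53.6% for proliferating WT and 12.2% and 23.5% for arrested WT. For Ezh2 in SS cells the 145 bp peaks gave 14.2% and 14.8%. Outside peaks over 50 kb from a proliferating SS peak had a proliferating WT peak in 0.427% and an arrested WT peak in 12.5% of cases. By length, the 145 bp outside peaks lay to 5.35% in proliferating WT and 7.88% in arrested WT peaks. For those over 50 kb away the values were 0.327% and 5.65%. All outside peaks together lay to 8.58% in proliferating WT and 9.33% in arrested WT peaks. The proliferating and arrested WT lists covered 9.73% and 7.65% of the autosomal span, which includes the proliferating SS peaks. Outside peaks exclude that sequence, and the WT share of the sequence left was not computed. Whether these overlaps lie above or below that background is therefore not known.

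The wild-type pair had more and shorter arrested peaks than the SS pair, and most of their length lay outside proliferating peaks. Of the 51714 proliferating WT peaks over 1 kb, 82.6% shared at least 1 bp with an arrested WT peak, against 52.3% of all proliferating WT peaks. Coverage of at least 50% was reached by 7.59%, against 9.35% of all. The median WT member was covered to 15.3% and the median over 10 kb to 33.2%, where SS had 23.9% and 61.6%. With arrested peaks merged within 1 kb the medians over all members were 25.5% in WT and 28.1% in SS, and with arrested peaks of at least 500 bp they were 0% and 16.3%. Outside proliferating WT peaks lay 79.5% of the 632166 arrested WT peaks and 63.0% of their length, where SS had 48.6% and 22.8%. WT members held 2 or more pieces in 43.5% of cases, against 17.4% of all proliferating WT peaks. The mean number of pieces per member was 2.02 in WT and 1.40 in SS, but with arrested peaks of at least 500 bp it was 0.784 and 0.932, so that order turned. Of the arrested WT peaks, 45.6% had the shortest length of their list, 133 bp, and the median authors' -log10 q-value was 8.56, against 1.77 in the arrested SS list. Genotype and library cannot be told apart here.

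The pattern held on each autosome with moderate spread. The share of member length covered ranged from 35.7% on chromosome 3 to 47.4% on chromosome 2, and was higher than in the WT pair on 19 of 19 chromosomes. Members with no arrested peak ranged from 24.0% on chromosome 4 to 33.9% on chromosome 3. The share of arrested peaks outside ran from 40.8% on chromosome 11, the richest in members with 36.9 per Mb, to 59.3% on chromosome 3, the poorest with 18.8 per Mb. Across the 19 chromosomes, Spearman's rho with members per Mb was -0.905 for the share outside and 0.654 for the length covered. Chromosomes share both libraries, and outside peaks per Mb varied little, from 38.4 to 46.4.

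**Figure D5:**
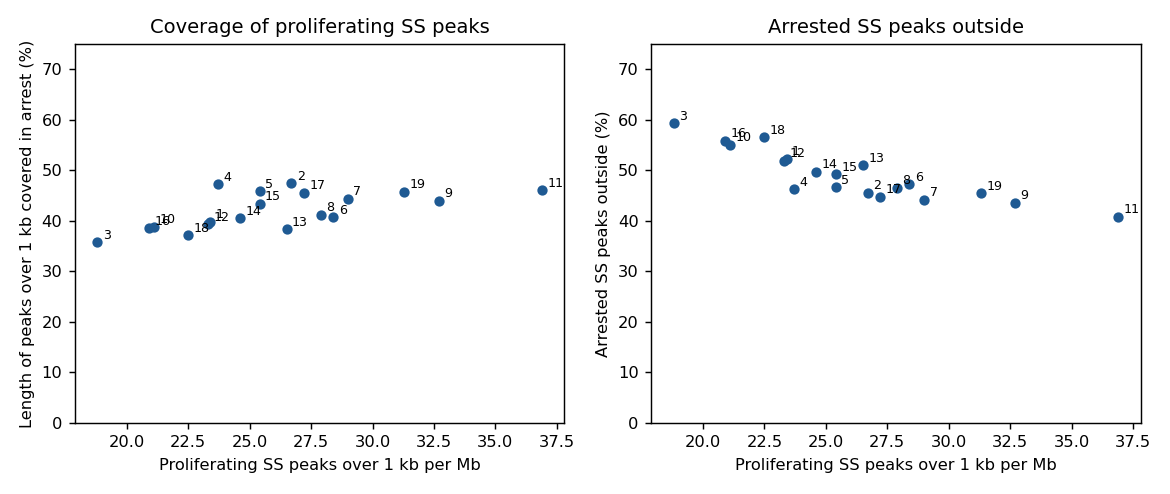
Each point is 1 of the 19 autosomes, labelled by number, by proliferating SS peaks over 1 kb per Mb. Left, the share of their length in arrested peaks, from 35.7% to 47.4%; right, the share of arrested SS peaks outside proliferating peaks, from 59.3% on chromosome 3 down to 40.8% on chromosome 11.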

How the data were processed

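Chromatin immunoprecipitation and sequencing data of H3K27me3 in arrested and proliferating SS and WT fibroblasts, and of Ezh2 in serum-deprived fibroblasts, were used as peak lists, 1 per library. The submitters' processing notes name MACS2, Bowtie2, bedtools, HOMER and the mm9 build, without versions; caller settings are not stated in those notes. The deposited H3K27me3 and Ezh2 lists hold a score, a fold enrichment as a ratio, and -log10 p- and q-values per peak from the authors' caller, used to rank peaks within a list. A common minimum and the list medians also set q-values of different lists side by side, although their depth is unknown. From the 4 deposited pRb lists, whose only value is a score, just the number of peaks was taken. No read count was used.

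Groups came from sample titles. Peaks do not overlap within a list. For each proliferating peak the covered length, the separate arrested peaks inside (at least 1 bp) and the breaks were computed. Distances run to the nearest proliferating peak edge. Regions named are the 5 longest members, the 5 of highest and lowest coverage and most pieces over 10 kb, the 5 longest outside and joining arrested peaks, and the Hox clusters. The members and lists were chosen with earlier results of these data known. No mm9 genome or annotation was used, so no peak sequence is shown, and lists of promoter genes were left aside. With 1 library per group no test was made. The interval steps were tested on simulated lists. Alternatives were length limits, merging, score minimums, equal covered length and other overlap rules. Computation used numpy 2.4.6 and scipy 1.17.1 under Python 3.11.15, tables pandas 2.3.3, and plots matplotlib 3.10.9.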

Additional observations from a re-analysis of the deposited data

Results flagged for a closer look

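Counting peaks of at least 500 bp on the autosomes, the arrested list held 0.890 times as many as the proliferating list in SS cells and 1.25 times as many in WT cells. The 2 genotypes thus moved in opposite directions at this cut with 1 library in each group, and the difference was not tested. Without a cut, and with peaks over 1 kb, they moved the same way. Further cuts are not given here. Peaks of any length numbered 208802 in arrested and 166592 in proliferating SS cells, and 632166 and 130883 in WT cells. Over 1 kb they numbered 40056 and 62531 in SS, and 27092 and 51714 in WT. The arrested WT list had a median peak length of 138 bp and the arrested SS list one of 439 bp.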

How the results depend on the processing

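No paired analysis was possible because each group had 1 library and no test was made; for the same reason no replicate could be left out. The median coverage of members was 23.9%. It was 35.9% for members over 2 kb, 8.97% for those over 500 bp, 28.1% with arrested peaks merged within 1 kb and 16.3% with arrested peaks of at least 500 bp. It was 2.85% with the higher-scoring arrested peaks, 38.3% for the higher-scoring members and 42.4% with the proliferating list shortened to the arrested covered length. At 1 score minimum in both lists, which left 50878 arrested peaks and 44555 members, it was 0%. The share of members touched fell from 72.9% to 23.6% when 50% of the member had to be covered. The mean number of pieces was 1.40, and it was 2.10 for members over 2 kb, 0.942 for those over 500 bp, 1.01 after merging and 0.932 with arrested peaks of at least 500 bp. The share of arrested peaks outside was 48.6%. It was 57.1% when under 50% of the peak had to lie inside, 35.0% and 15.1% beyond 1 and 10 kb, 40.0% for the higher-scoring peaks, 28.3% for those of at least 500 bp and 58.7% against members alone. For the WT pair, in settings chosen after seeing the data, the median of 15.3% became 25.5% after merging and 0% with peaks of at least 500 bp, and SS stayed above WT with 28.1% and 16.3%. The cause of these shifts was not tested. Depth cannot be read from the lists, so absence of a call is not absence of the mark.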
